A study of Mus musculus with 16 samples.

Results

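The genes described here are 10 mouse genes of innate microbe sensing, namely 6 Toll-like receptors (Tlr1, Tlr2, Tlr3, Tlr4, Tlr5 and Tlr9), the NOD receptors Nod1 and Nod2, the co-receptor Cd14 and the adaptor Myd88. They were taken by symbol from a table of 54392 gene symbols, and all 10 were found there. Bulk RNA-seq of colonocytes, the epithelial cells lining the colon, was carried out on C57BL/6 mice that had eaten 1 of 2 diets for 3 weeks. The fish oil/pectin diet, which pairs a fat rich in long-chain omega-3 fatty acids with a fermentable fibre, was represented by 7 libraries. The corn oil/cellulose diet, in which the fat is rich in omega-6 fatty acids and the fibre is little fermented, was represented by 9 libraries. The labels call the cells colonocytes, while the extraction text speaks of RNA of the colon. Neither the age of the mice nor any genetic change is given in the labels, and no group received another agent. Whether each of the numbered biological replicates was a mouse of its own is not said in the labels, and p-values therefore measure only the spread between libraries.

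Toll-like receptors are membrane proteins that bind conserved microbial molecules. TLR1 and TLR2 together bind bacterial lipopeptides, TLR4 binds lipopolysaccharide handed over by CD14, TLR5 binds flagellin, TLR3 binds double-stranded RNA and TLR9 binds unmethylated CpG DNA. All of them except TLR3 signal through the adaptor MyD88, whereas TLR3 signals through TRIF, the product of Ticam1. NOD1 and NOD2 are cytosolic and bind fragments of bacterial peptidoglycan, and they signal through the kinase RIPK2. Both routes lead to the transcription factors NF-kB and, for some receptors, to interferon regulatory factors. In the colon these receptors are known from epithelial cells and from leukocytes, the blood-derived immune cells.

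Of the 10 genes, 3 were lower in fish oil/pectin colonocytes and 1 was higher. Tlr5, the flagellin receptor, was 1.80-fold lower, Tlr3, the receptor for double-stranded RNA, was 1.41-fold lower, and Tlr1 was 1.16-fold lower. Cd14 was 1.27-fold higher, a difference that rested largely on 1 library. Tlr2, Tlr4, Nod1, Nod2 and Myd88 did not pass the threshold, and Tlr9 was too low to test. Over all 13825 genes tested, 42.7% passed the same threshold, 22.1% as higher and 20.6% as lower, so 4 of 9 tested genes is close to the background share.

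Promoters are shown first for the genes that passed the diet threshold and had a window, which are the 3 that were lower. Promoter windows from RefSeq, 250 bases before to 50 bases after the transcription start on GRCm38.p6, were available for 8 of the 10 genes, and Tlr4 and Cd14 had no entry. The windows were searched on both strands for an interferon-stimulated response element (GAAA, any 2 bases, GAAA), the NF-kB consensus, the AP-1 site (TGANTCA), the E-box (CACGTG) and the TATA box (TATAAA). Capitals mark matches to any of these motifs. The Tlr1 window, from the first of 2 annotated starts, lies at chr5:64933509-64933808 on the minus strand, that of Tlr3 at chr8:45410331-45410630 on the minus strand, and that of Tlr5 at chr1:182954538-182954837 on the plus strand.
Tlr1: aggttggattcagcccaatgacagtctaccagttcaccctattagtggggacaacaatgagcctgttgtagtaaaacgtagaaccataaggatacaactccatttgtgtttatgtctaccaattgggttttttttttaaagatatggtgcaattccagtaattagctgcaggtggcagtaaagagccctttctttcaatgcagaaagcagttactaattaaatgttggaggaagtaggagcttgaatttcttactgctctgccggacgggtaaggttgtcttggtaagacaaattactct
Tlr3: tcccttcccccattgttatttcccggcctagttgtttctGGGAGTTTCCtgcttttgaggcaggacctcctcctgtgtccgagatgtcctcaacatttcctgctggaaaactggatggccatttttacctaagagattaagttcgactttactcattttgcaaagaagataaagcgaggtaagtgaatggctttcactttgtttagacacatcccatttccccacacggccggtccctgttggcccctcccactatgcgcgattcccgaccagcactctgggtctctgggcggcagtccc
Tlr5: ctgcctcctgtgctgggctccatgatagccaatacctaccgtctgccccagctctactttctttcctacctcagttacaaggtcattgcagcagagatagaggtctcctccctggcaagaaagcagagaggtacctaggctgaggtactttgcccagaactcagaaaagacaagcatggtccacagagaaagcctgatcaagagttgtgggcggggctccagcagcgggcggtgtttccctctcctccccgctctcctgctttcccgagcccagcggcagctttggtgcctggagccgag
The Tlr3 window held 1 match to the NF-kB consensus, at bases -211 to -202 from the start, and the Tlr1 and Tlr5 windows printed here held none of the 5 motifs. Among all 32851 windows of this kind, the NF-kB consensus occurred in 4.51%, the interferon element in 3.44%, the AP-1 site in 7.81%, the E-box in 7.15% and the TATA box in 13.6%. These matches are letters in a window and not measured binding sites. CpG dinucleotides numbered 3 in the Tlr1 window, 10 in the Tlr3 window and 8 in the Tlr5 window, against a median of 7 over all windows.

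For comparison, 2 windows of genes that did not pass the diet test held more matches, and they are printed with the same marking. The Tlr2 window lies at chr3:83841559-83841858 and the Myd88 window at chr9:119339969-119340268, both on the minus strand.
Tlr2: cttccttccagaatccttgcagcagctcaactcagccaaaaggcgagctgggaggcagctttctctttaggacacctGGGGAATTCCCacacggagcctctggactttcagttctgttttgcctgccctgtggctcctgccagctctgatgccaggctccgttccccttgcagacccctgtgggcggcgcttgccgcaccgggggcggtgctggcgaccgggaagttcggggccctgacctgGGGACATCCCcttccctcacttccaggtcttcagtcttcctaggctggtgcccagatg
Myd88: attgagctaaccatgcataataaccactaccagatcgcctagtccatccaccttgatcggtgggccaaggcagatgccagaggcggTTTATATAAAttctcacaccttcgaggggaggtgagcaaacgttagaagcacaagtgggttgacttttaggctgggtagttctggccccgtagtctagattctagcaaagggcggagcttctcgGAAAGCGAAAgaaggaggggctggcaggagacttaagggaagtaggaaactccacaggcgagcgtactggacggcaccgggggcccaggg
The Tlr2 window held 3 matches to the NF-kB consensus, of which 2 overlap at -173 to -163 and the other spans -8 to 1. The Myd88 window held 1 interferon element, at -40 to -31, and 2 overlapping TATA box matches on opposite strands between -164 and -155. Of the other windows, that of Tlr9 held 1 AP-1 match at -58 to -52, that of the second Tlr1 start held 1 E-box match at -195 to -190, and those of Nod1 and Nod2 held none of the 5 motifs.

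Library totals ran from 16212831 to 19512755 counts in fish oil/pectin and from 13996288 to 19331984 counts in corn oil/cellulose. Library names either began with GC or ended in A or Q, and the sources used here do not say what these mean. Names ended in A in 1 library per diet, fish oil/pectin library 2 and corn oil/cellulose library 1. They ended in Q in 1 fish oil/pectin and 3 corn oil/cellulose libraries. Both kinds were pooled as 1 other form, so the 2 forms below are GC-named and other. In fish oil/pectin 5 names began with GC and 2 did not, and in corn oil/cellulose 5 began with GC and 4 did not. The forms stood apart, with 41.1% of genes differing between them, so the model included the form as a term, and diet differences are also given within each form. Counts of Y-linked genes were above 100 in all 6 libraries of the other form but in 1 of 5 GC-named fish oil/pectin and 2 of 5 GC-named corn oil/cellulose libraries. Fish oil/pectin library 7 stood apart in the distal colon Hox genes, whose mean log2 CPM was 0.56 there and 3.48 to 5.22 in the other 15 libraries. Levels are given as CPM on the TMM-scaled library totals, and log2 fold changes are fish oil/pectin over corn oil/cellulose with their standard errors.

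Leukocyte markers moved with the diet in 1 form of the libraries. Of 10 pan-leukocyte markers 9 were tested, of which 7 were lower in fish oil/pectin and 0 were higher, with a median log2 fold change of -0.97. Their summed level was 81.3 to 98.4 CPM in GC-named fish oil/pectin libraries, against 124 to 173 CPM in GC-named corn oil/cellulose libraries. In the libraries of the other form the sums were 76.5 to 77.4 CPM in fish oil/pectin and 77.5 to 84.1 CPM in corn oil/cellulose, so the diets there differed by less. The largest part of these sums came from Ptpn6, which did not pass, at 42.1 CPM in fish oil/pectin and 42.6 CPM in corn oil/cellulose on average. Of 11 epithelial markers, all tested, 8 were higher in fish oil/pectin and 0 were lower, with a median log2 fold change of 0.29. Their summed level was 28901 to 35073 CPM in GC-named fish oil/pectin libraries, against 23265 to 24578 CPM in GC-named corn oil/cellulose libraries. In the other form the sums were 20100 to 20216 CPM in fish oil/pectin and 19932 to 20569 CPM in corn oil/cellulose, and the difference between the forms passed for 6 of the 11 markers. Epcam, the epithelial adhesion molecule, was at 2488 ± 304 CPM in fish oil/pectin and 2287 ± 69.0 CPM in corn oil/cellulose (SD, n = 7 and 9). In bulk samples, fewer cells of a type and less RNA per cell cannot be told apart.

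Between genes, levels were compared per 1000 exon bases and averaged over the 16 libraries. They were ranked among the 13770 genes that passed the filter on low counts and had a known exon length. Tlr1 was the most abundant of the 10, at 29.4 CPM per 1000 bases, above 85.5% of these genes. Cd14 followed at 24.3 and Myd88 at 16.7 CPM per 1000 bases. Tlr2 averaged 9.82, Tlr3 7.00, Nod1 4.93 and Tlr4 4.76 CPM per 1000 bases, in the middle range of the ranked genes. Tlr5 averaged 1.31 and Nod2 0.546 CPM per 1000 bases, above 21.6% and 11.4% of the ranked genes, and Tlr9 was nearly absent at 0.0161.

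The order of neighbours held in most libraries. Cd14 exceeded Myd88, Myd88 exceeded Tlr2, Tlr4 exceeded Tlr5 and Nod2 exceeded Tlr9 in 16 of 16 libraries each. Tlr1 was above Cd14 in 13 of 16, Tlr2 above Tlr3 and Tlr3 above Nod1 in 14 of 16 each, and Tlr5 above Nod2 in 15 of 16. Nod1 and Tlr4 did not separate, with Nod1 higher in 9 of 16 libraries and SDs of 0.798 and 1.28 CPM per 1000 bases. The widest step among the tested genes lay between Tlr4 and Tlr5, a ratio of 3.64 between their means.

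**Figure D1:**
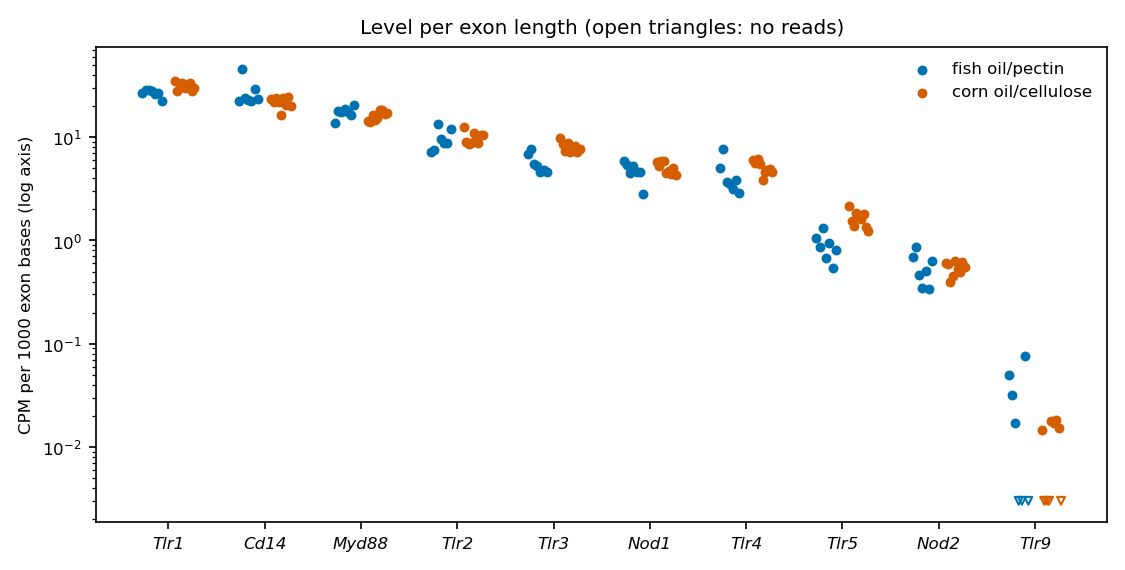
Level of the 10 genes in CPM per 1000 exon bases on a log axis, genes ordered by their mean over 16 libraries, with each point 1 library (fish oil/pectin left, corn oil/cellulose right). Open triangles mark libraries with no reads. Tlr1 and Cd14 lead at means of 29.4 and 24.3, Tlr5 and Nod2 lie at 1.31 and 0.546, and Tlr9 has no reads in several libraries.

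Tlr1 (ENSMUSG00000044827.10, chromosome 5, 64924679 to 64933563, minus strand, GRCm38) encodes the partner of TLR2 for triacylated lipopeptides. Its level was 75.3 to 96.7 CPM with a median of 90.3 in fish oil/pectin, against 93.3 to 117 CPM with a median of 104 in corn oil/cellulose. The ranges overlapped narrowly, since fish oil/pectin libraries 2 and 3 reached 96.7 and 95.9 CPM while corn oil/cellulose libraries 8 and 2 lay at 93.3 and 94.6 CPM. All 7 fish oil/pectin libraries were below the corn oil/cellulose median. The log2 fold change was -0.21 ± 0.06, with an adjusted p of 0.00975 in edgeR's quasi-likelihood test.

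The estimate for Tlr1 was nearly the same in both forms of the libraries, with a wider error in the smaller one. It was -0.21 ± 0.07 in the GC-named ones (adjusted p = 0.0296) and -0.22 ± 0.10 in the others, where it did not pass (adjusted p = 0.284), both from 1 edgeR fit of all 16 libraries. The difference between the forms was 0.01 ± 0.13 (adjusted p = 0.969). The GC-named call was lost when any of fish oil/pectin libraries 5, 6 and 7 or any of corn oil/cellulose libraries 6, 7 and 9 was left out, with adjusted p-values up to 0.0801 in edgeR. Tlr6, a close paralog with which reads could be shared, had 5 to 24 counts per library, and Tlr1 had 73.0 to 295 times as many counts. How the counting treated reads that match both genes was not tested.

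Tlr2 (ENSMUSG00000027995.10, chromosome 3, 83836272 to 83841767, minus strand) encodes the shared subunit of the lipopeptide receptors. It ranged from 21.6 to 40.6 CPM with a median of 26.7 in fish oil/pectin, against 26.1 to 38.2 CPM with a median of 29.7 in corn oil/cellulose. The groups overlapped, and fish oil/pectin held both the highest library and the 2 lowest. Its log2 fold change was -0.10 ± 0.12 (adjusted p = 0.502, edgeR). In GC-named libraries it was 0.06 ± 0.13 (adjusted p = 0.719), and in the others -0.43 ± 0.18 (adjusted p = 0.250). The difference between the forms was 0.49 ± 0.22 and did not pass (adjusted p = 0.170, edgeR).

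Tlr4 (ENSMUSG00000039005.13, chromosome 4, 66827584 to 66930284, plus strand), the lipopolysaccharide receptor, ranged from 16.1 to 43.1 CPM with a median of 20.3 in fish oil/pectin, against 21.6 to 34.1 CPM with a median of 27.2 in corn oil/cellulose. Over all libraries the log2 fold change was -0.22 ± 0.11 and did not pass (adjusted p = 0.102, edgeR). Fish oil/pectin library 2, of the other name form and with a name ending in A, was the highest of all 16 at 43.1 CPM. Without it the log2 fold change was -0.37 and passed (adjusted p = 0.00172, edgeR).

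Among GC-named libraries the diets did not overlap in Tlr4. The 5 fish oil/pectin libraries lay between 16.1 and 21.3 CPM and the 5 corn oil/cellulose libraries between 21.6 and 27.2 CPM. Of all genes 14% were lower without overlap in this way. The joint edgeR fit gave -0.42 ± 0.11 in the GC-named libraries (adjusted p = 0.00487), against a background of 22.3% of genes called lower there. In the libraries of the other form the fit gave 0.13 ± 0.15 (adjusted p = 0.672), from 27.9 and 43.1 CPM in fish oil/pectin and 30.8 to 34.1 CPM in corn oil/cellulose. The difference between the forms was -0.55 ± 0.18 and did not pass (adjusted p = 0.0667, edgeR). It rested on 1 or the other of those fish oil/pectin libraries, being -0.83 without library 1 (adjusted p = 0.0331) and -0.20 without library 2, where the library left is taken to vary like the rest. In GC-named libraries Tlr4 and the leukocyte marker sums were both lower in fish oil/pectin than in corn oil/cellulose. Between the forms they ran opposite. Tlr4 was higher in the other form by 0.58 ± 0.11 on the log2 scale, while the leukocyte marker sums of each diet were lower there. The part of those markers in the GC-named result was not tested. They were added only in an edgeR fit of all 16 libraries, which put Tlr4 at 0.05 (adjusted p = 0.830). Without them the value over all libraries was -0.22. With them 0 of 13825 genes passed, so that adjusted p is not particular to Tlr4.

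Tlr5 (ENSMUSG00000079164.8, chromosome 1, 182954788 to 182976044, plus strand) showed the largest fold of the 9 tested genes. The 7 fish oil/pectin libraries held 39 to 106 reads and 2.57 to 6.30 CPM with a median of 4.14, against 96 to 207 reads and 5.97 to 10.4 CPM with a median of 7.79 in corn oil/cellulose. Only fish oil/pectin library 3, at 6.30 CPM, reached into the corn oil/cellulose range, so 6 of 7 lay below the lowest corn oil/cellulose library and 7 of 7 below its median. The means were 4.25 ± 1.23 CPM in fish oil/pectin and 7.81 ± 1.41 CPM in corn oil/cellulose (SD, n = 7 and 9). On the log2 scale the fold change was -0.85 ± 0.16 (adjusted p = 0.000903, edgeR), place 790 of 13825 genes by p.

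In both forms of the libraries Tlr5 differed by nearly the same amount. The GC-named libraries gave -0.85 ± 0.20 (adjusted p = 0.00279) and the others -0.84 ± 0.28, which did not pass (adjusted p = 0.197), in the joint edgeR fit. Between the forms the difference was -0.0042 ± 0.33 (adjusted p = 0.996). Libraries of the other form lay at 4.14 and 5.12 CPM in fish oil/pectin and at 6.57 to 10.4 CPM in corn oil/cellulose. They did not overlap, which among these 2 and 4 libraries held for 17.2% of all genes as lower and 18.3% as higher. The diets also did not overlap there for Tlr2, as lower, and for Nod2, as higher. For Tlr5 an edgeR fit of the 6 other libraries alone gave -0.83 ± 0.21, which passed (adjusted p = 0.0462). With the pan-leukocyte markers added to the model of all 16 libraries, Tlr5 was at -0.99. It did not pass (adjusted p = 0.0883, edgeR), as held for every gene in that fit.

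Tlr3 (ENSMUSG00000031639.12, chromosome 8, 45395665 to 45411080, minus strand), an endosomal receptor, had the lowest p of the 9, place 139 of 13825. It ranged from 23.9 to 39.8 CPM with a median of 27.2 in fish oil/pectin, against 37.4 to 51.1 CPM with a median of 40.5 in corn oil/cellulose. Fish oil/pectin library 2 alone, at 39.8 CPM, reached into the corn oil/cellulose range, and 7 of 7 were below its median. The log2 fold change was -0.50 ± 0.08 (adjusted p = 0.000484, edgeR).

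Among GC-named libraries Tlr3 lay between 23.9 and 28.7 CPM in fish oil/pectin and between 37.4 and 43.1 CPM in corn oil/cellulose, a gap wider than either range. A lack of overlap in these libraries held for 14% of all genes as lower and 15.4% as higher. The log2 fold change of Tlr3 there was -0.63 ± 0.08 (adjusted p = 3.0e-05, edgeR joint fit). In the other libraries fish oil/pectin had 35.5 and 39.8 CPM and corn oil/cellulose 38.0 to 51.1 CPM, with a log2 fold change of -0.26 ± 0.11 that did not pass (adjusted p = 0.256). Between the forms it differed by -0.37 ± 0.14 and did not pass (adjusted p = 0.0990, edgeR). The leukocyte marker sums also differed between the diets by more in the GC-named libraries. Their part in the Tlr3 result there was not tested. An edgeR fit of all 16 libraries with these markers added put Tlr3 at -0.33 (adjusted p = 0.105), against -0.50 without them. With them 0 of 13825 genes passed, so the lost call is not particular to Tlr3. An antisense gene, Gm45542, shares 381 exon bases with Tlr3 and had 0 to 1 counts in both diets.

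Tlr9 (ENSMUSG00000045322.10, chromosome 9, 106222598 to 106226883, plus strand), the endosomal receptor for CpG DNA, did not pass the filter on low counts. It had 0 to 4 reads per library and 10 in total in fish oil/pectin, against 0 to 1 reads per library and 5 in total in corn oil/cellulose. A difference between the diets was not detectable at this depth.

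**Figure D2:**
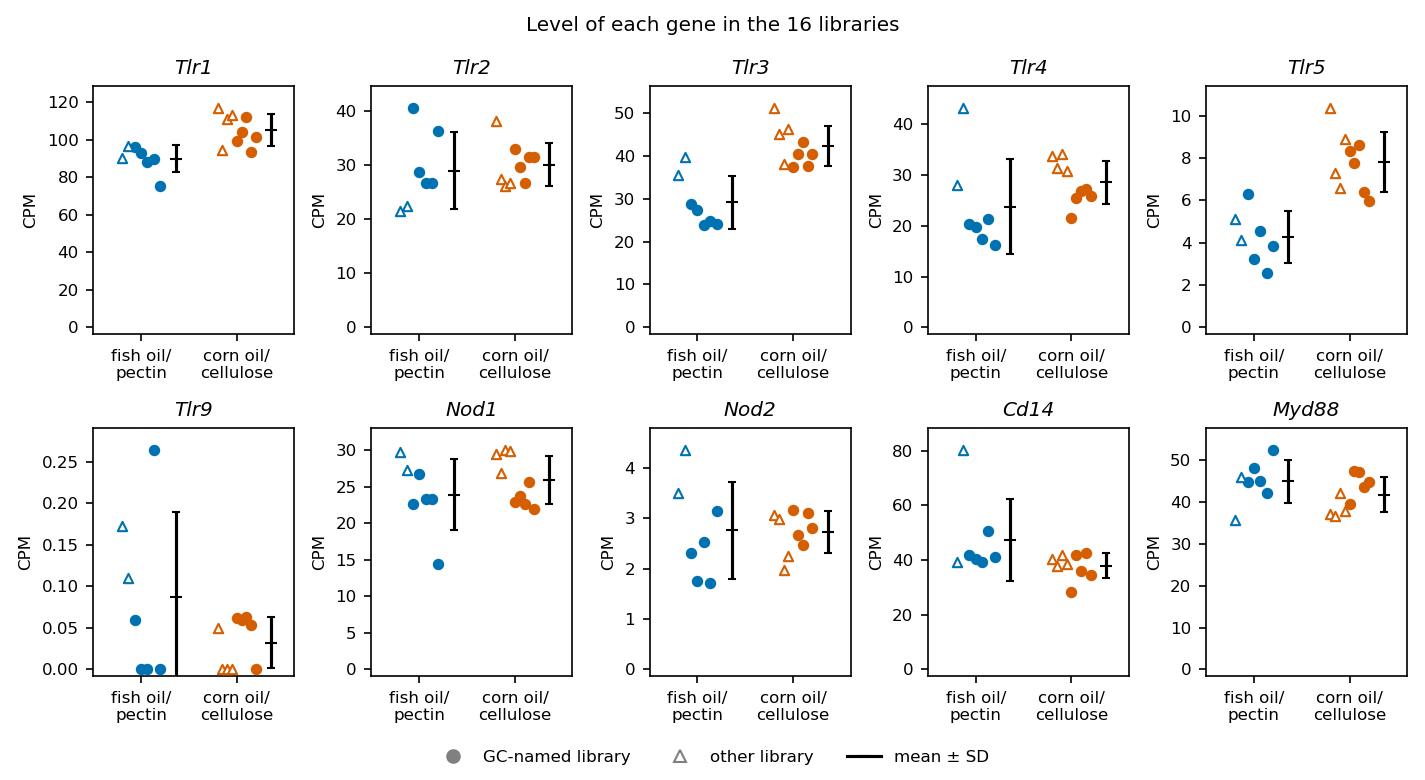
Level of each gene in CPM in 7 fish oil/pectin (left) and 9 corn oil/cellulose (right) libraries. Filled circles are GC-named libraries, open triangles are the others, and bars give the mean ± SD of each diet. Tlr5 spans 2.57 to 6.30 CPM in fish oil/pectin against 5.97 to 10.4 CPM in corn oil/cellulose, and fish oil/pectin library 2 stands high in Tlr4 at 43.1 and Cd14 at 80.2 CPM.

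Cd14 (ENSMUSG00000051439.7, chromosome 18, 36725067 to 36726798, minus strand) encodes the lipopolysaccharide carrier that serves TLR4 and other receptors. It ranged from 39.1 to 80.2 CPM with a median of 41.0 in fish oil/pectin, against 28.3 to 42.4 CPM with a median of 38.4 in corn oil/cellulose. All 7 fish oil/pectin libraries were above the corn oil/cellulose median, but 5 of them lay within its range. Its log2 fold change was 0.35 ± 0.12 (adjusted p = 0.0306, edgeR).

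That call depended on single libraries. Fish oil/pectin library 2 had 80.2 CPM, and library 6, the next, had 50.7 CPM. Without library 2 the log2 fold change was 0.16 (adjusted p = 0.166, edgeR). Leaving out fish oil/pectin library 6 also ended the call (adjusted p = 0.0668), as did leaving out corn oil/cellulose library 4 (adjusted p = 0.0503), 5 (0.0589) or 9 (0.0522). In the joint edgeR fit it was 0.22 ± 0.15 in GC-named libraries (adjusted p = 0.263) and 0.59 ± 0.20 in the others (adjusted p = 0.202). The value in the others was 1.02 without fish oil/pectin library 1 (adjusted p = 0.0295) and -0.020 without library 2, each leaving 1 fish oil/pectin library of that form. The difference between the forms was -0.37 ± 0.26 (adjusted p = 0.390), and -0.80 without library 1 (adjusted p = 0.0479).

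Nod1 (ENSMUSG00000038058.14, chromosome 6, 54923949 to 54972612, minus strand), a sensor of peptidoglycan mainly from Gram-negative bacteria, ranged from 14.5 to 29.7 CPM with a median of 23.4 in fish oil/pectin, against 22.0 to 30.1 CPM with a median of 25.6 in corn oil/cellulose. The groups overlapped except for fish oil/pectin library 7, at 14.5 CPM, the library with low distal colon Hox genes. The log2 fold change was -0.06 ± 0.09 (adjusted p = 0.612, edgeR) and 0.013 without that library.

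Nod2 (ENSMUSG00000055994.15, chromosome 8, 88647315 to 88688474, plus strand), the sensor of muramyl dipeptide, was the lowest of the tested genes per length. It ranged from 1.72 to 4.36 CPM with a median of 2.53 in fish oil/pectin, against 1.97 to 3.17 CPM with a median of 2.80 in corn oil/cellulose, from 26 to 79 and 33 to 61 reads. Fish oil/pectin held both the 2 lowest and the 2 highest libraries, and the log2 fold change was 0.04 ± 0.18 (adjusted p = 0.883, edgeR). It was -0.30 ± 0.19 in GC-named libraries (adjusted p = 0.195) and 0.61 ± 0.24 in the others (adjusted p = 0.232). Opposite in sign, they differed by -0.91 ± 0.30, which did not pass (adjusted p = 0.0700, edgeR). Without fish oil/pectin library 7 that difference passed (adjusted p = 0.0282).

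Myd88 (ENSMUSG00000032508.8, chromosome 9, 119335934 to 119341411, minus strand), the shared adaptor, ranged from 35.6 to 52.4 CPM with a median of 45.0 in fish oil/pectin, against 36.5 to 47.4 CPM with a median of 42.0 in corn oil/cellulose. The diets overlapped over nearly their whole range, with a log2 fold change of 0.07 ± 0.07 (adjusted p = 0.380, edgeR). Acaa1a on the opposite strand shares 290 exon bases with Myd88 and had 1623 to 2909 counts in fish oil/pectin and 1565 to 2273 in corn oil/cellulose. Its log2 fold change was 0.22 (adjusted p = 0.0327, edgeR), and since the sources used here do not give the strand setting of the counting, its part in the Myd88 counts was not tested.

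Apart from diet, 4 of the 9 tested genes differed between the name forms. Tlr4 was higher in libraries of the other form by 0.58 ± 0.11 on the log2 scale (adjusted p = 0.000507, edgeR), Tlr3 by 0.33 ± 0.08 (adjusted p = 0.00337) and Nod1 by 0.33 ± 0.09 (adjusted p = 0.00896). Myd88 was lower there by a log2 fold change of -0.20 ± 0.07 (adjusted p = 0.0237). Of all genes 20.8% were higher and 20.4% lower in that form, and the part of the Y-linked counts, which also differed between the forms, was not tested.

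Within the GC-named libraries 4 of the 9 tested genes were lower, Tlr1, Tlr3, Tlr4 and Tlr5, and 0 were higher. Of all genes 45.8% were called there, 22.3% as lower and 23.5% as higher. The median log2 fold change of the 9 genes was -0.21 there. In the libraries of the other form 0 of the 9 passed, as did 0% of all 13825 genes in the joint edgeR fit, although 2356 of those had an unadjusted p under 0.05 and an edgeR fit of these 6 libraries alone called 900 genes, of which Tlr5 was 1. The difference between the forms passed for 0 of the 9 genes and for 8.77% of all genes, 4.42% with a more positive and 4.35% with a more negative log2 fold change in the GC-named libraries. None of the 9 genes had CPM ranges that kept the diets wholly apart over all 16 libraries, which 2.32% of all genes did as higher and 1.08% as lower. Over all libraries the median of the 9 genes was -0.10, against -0.01 over all tested genes.

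**Figure D3:**
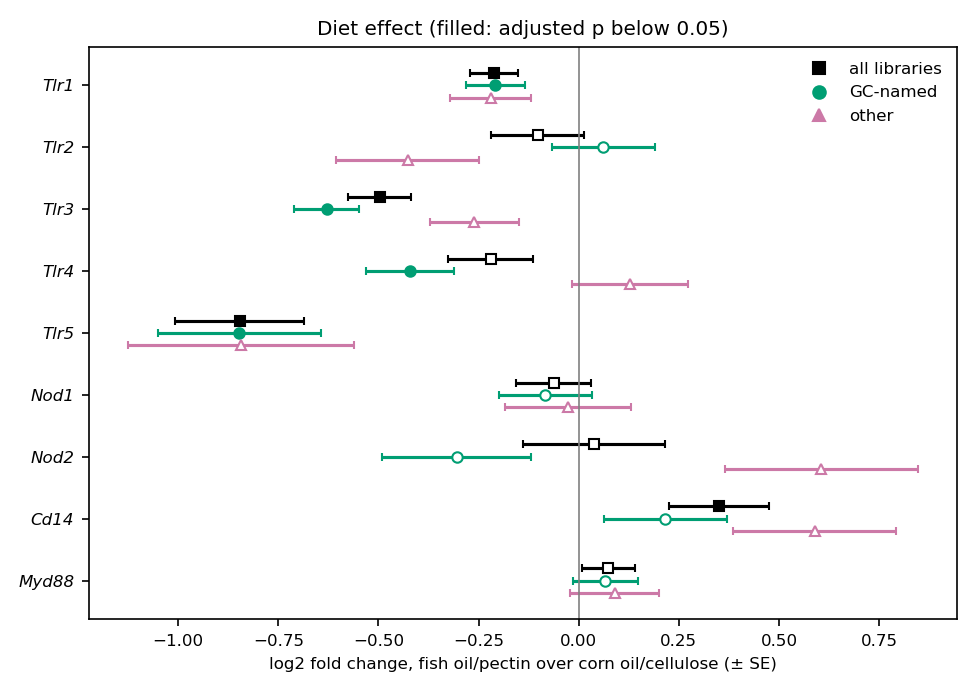
Log2 fold change of fish oil/pectin over corn oil/cellulose for the 9 tested genes with bars of 1 standard error, over all libraries (squares), in GC-named libraries (circles) and in the others (triangles), the last 2 from the joint fit. Filled symbols have an adjusted p below 0.05. Tlr5 and Tlr1 lie at nearly the same value in both forms, whereas Tlr4 and Nod2 lie on opposite sides of 0.

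The 3 genes that were lower varied together over the 16 libraries, as a description of libraries that share diet and name form. Pearson's r of log2 CPM was 0.81 between Tlr3 and Tlr5, 0.79 between Tlr1 and Tlr3, and 0.74 between Tlr1 and Tlr5. Tlr4 followed Tlr3 at 0.81 and Nod1 at 0.71. Myd88 ran against most receptors, at -0.68 with Nod1 and -0.52 with Tlr3, and Tlr2 was close to unrelated to its partner Tlr1 at -0.02.

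Among all tested genes, the ones whose log2 CPM followed each gene most closely over the 16 libraries were found in the same way. Tlr3 was followed by Jmjd1c at an r of 0.980, by Ep300, which encodes a histone acetyltransferase, at 0.979 and by Pde4d, a cyclic AMP phosphodiesterase, at 0.979. Tlr1 was followed by Naip1, itself a cytosolic sensor of bacterial secretion needle protein, at 0.946, and by Ces2f at 0.940. Tlr5 was followed by the phospholipid flippase gene Atp11a at 0.945 and by Als2cl at 0.923, and Tlr4 by the circadian gene Clock at 0.947. The closest genes were weaker for Cd14, where Pgam5, a mitochondrial phosphatase gene, reached 0.830, and for Tlr2, where H2-T3 reached 0.860.

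The wider pathway was read from lists of 86 genes, of which 65 were tested. Of these 9 were higher in fish oil/pectin and 15 lower, which is 36.9% against 42.7% of all genes, and the median log2 fold change was -0.06. The share called was near the background, and both directions occurred within most lists.

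Co-receptors and trafficking factors had 5 of 8 genes tested, with 3 higher and 0 lower. Hsp90b1, the endoplasmic reticulum chaperone that folds Toll-like receptors, was higher by 0.43 ± 0.13 on the log2 scale (adjusted p = 0.0152, edgeR), at 744 ± 215 CPM in fish oil/pectin and 548 ± 67.8 CPM in corn oil/cellulose. Its partner chaperone Cnpy3 was higher by 0.22 ± 0.08 (adjusted p = 0.0311). Lbp, the lipopolysaccharide-binding protein, was higher by 1.31 ± 0.47 (adjusted p = 0.0339), but its level of 2.43 ± 3.21 CPM in fish oil/pectin against 1.03 ± 0.529 CPM in corn oil/cellulose shows how unevenly the libraries carried it. The log2 fold change was 0.12 for Ly96, the TLR4 partner MD-2 (adjusted p = 0.446), and 0.00 for Unc93b1, which escorts TLR3 and TLR9 to endosomes (adjusted p = 0.981). The remaining Toll-like receptors were near absent. Tlr6 stood at -0.15 on the log2 scale (adjusted p = 0.650), and Tlr7, Tlr8, Tlr11, Tlr12 and Tlr13 had at most 13 counts in any library and were not tested.

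Adaptors and proximal kinases had 16 of 18 genes tested, with 1 higher and 5 lower. Lower were Peli1, a ubiquitin ligase of this pathway, at -0.31 ± 0.06 (adjusted p = 0.00119, edgeR), Irak2 at -0.27 ± 0.09 (adjusted p = 0.0171), Tab3 at -0.26 ± 0.08 (adjusted p = 0.0212), Tbk1 at -0.16 ± 0.06 (adjusted p = 0.0303) and Tirap, which bridges TLR2 and TLR4 to MyD88, at -0.31 ± 0.12 (adjusted p = 0.0434). Ube2n, the ubiquitin-conjugating enzyme that works with TRAF6, was higher at 0.30 ± 0.07 (adjusted p = 0.00356). Ticam1, the adaptor of TLR3, missed the threshold at 0.13 (adjusted p = 0.178), and so did Irak1 at -0.08 (0.299), Irak4 at -0.09 (0.272) and Traf6 at -0.13 (0.113). Irak1 stood at -0.20 in GC-named libraries and 0.15 in the others, a difference that passed (adjusted p = 0.0284, edgeR joint fit).

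NOD signalling had 10 of 13 genes tested, with 0 higher and 3 lower. Nlrc3, a NOD-like receptor abundant in lymphocytes, was lower by -1.92 ± 0.32 on the log2 scale (adjusted p = 0.000561, edgeR), at 0.322 ± 0.111 CPM in fish oil/pectin and 1.14 ± 0.750 CPM in corn oil/cellulose. Nlrc3 stood at -2.27 in GC-named libraries and -0.88 in the others, a difference that did not pass (adjusted p = 0.234, edgeR joint fit). Markers of T and NK cells were also lower, 6 of 8 tested with a median of -0.98. Their median was -1.33 in GC-named libraries, with sums of 11.5 to 29.0 CPM in fish oil/pectin against 21.9 to 52.3 CPM in corn oil/cellulose. In the others it was -0.12, with sums of 8.05 to 11.5 CPM against 7.47 to 12.8 CPM. The part of these markers in the Nlrc3 result was not tested. Xiap, the ubiquitin ligase that acts on RIPK2, was lower by -0.56 ± 0.12 (adjusted p = 0.00161), and Birc2, another ligase of this step, by -0.20 ± 0.05 (adjusted p = 0.00673). Xiap stood at -0.81 in GC-named libraries and -0.13 in the others, a difference that passed (adjusted p = 0.0349, edgeR joint fit). Ripk2 itself stood at 0.15 (adjusted p = 0.273).

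Negative regulators had 14 of 15 genes tested, with 2 higher and 4 lower. Erbin, a scaffold protein that binds NOD2, was lower at -0.55 ± 0.09 (adjusted p = 0.000566, edgeR), as were the deubiquitinase Cyld at -0.27 ± 0.06 (adjusted p = 0.00155), Tnfaip3, which encodes A20, at -0.40 ± 0.10 (adjusted p = 0.00472) and the ubiquitin ligase Rnf216 at -0.18 ± 0.06 (adjusted p = 0.0181). The NF-kB inhibitors Nfkbia and Nfkbib were higher at 0.25 ± 0.06 (adjusted p = 0.00499) and 0.27 ± 0.08 (adjusted p = 0.00994). Nfkbib stood at 0.43 in GC-named libraries and -0.03 in the others, a difference that passed (adjusted p = 0.0314, edgeR joint fit).

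Of 13 genes for NF-kB, its kinases and interferon regulatory factors, all tested, 1 was higher and 3 lower. Nfkb1 was lower at -0.26 ± 0.07 (adjusted p = 0.00603, edgeR), Rel at -0.50 ± 0.14 (adjusted p = 0.00720) and Ikbkg, the regulatory subunit of the kinase that frees NF-kB, at -0.18 ± 0.06 (adjusted p = 0.0216). For Nfkb1 the joint edgeR fit gave -0.42 in GC-named libraries and 0.03 in the others, a difference that passed (adjusted p = 0.0180). For Rel it gave -0.79 and -0.04, which also passed as a difference (adjusted p = 0.0434). Irf3, which acts downstream of TLR3 and TLR4, was higher at 0.19 ± 0.06 (adjusted p = 0.0240). Of 18 NF-kB target genes 11 were tested, with 3 higher and 1 lower. Nos2, the inducible nitric oxide synthase, was higher by 2.11 ± 0.53 (adjusted p = 0.00475), at 2.32 ± 1.86 CPM in fish oil/pectin and 0.624 ± 0.673 CPM in corn oil/cellulose. Nfkbia and Sod2, at 0.16 ± 0.06 (adjusted p = 0.0318), were the other 2 that were higher, and Tnfaip3 was the 1 that was lower.

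**Figure D4:**
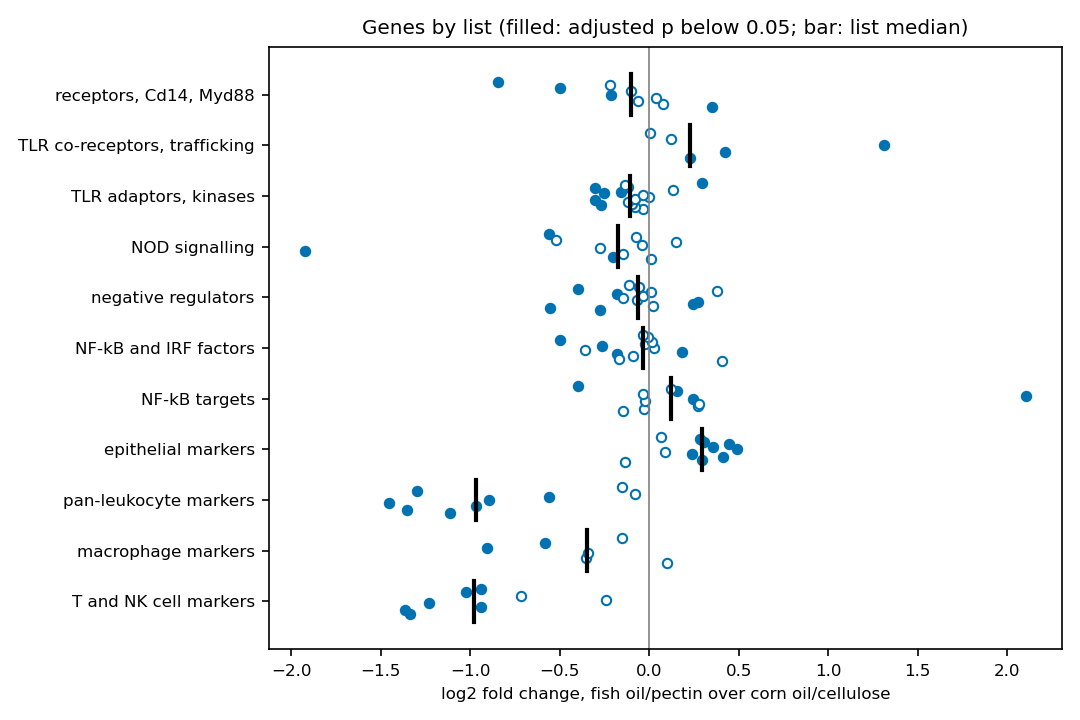
Log2 fold change of fish oil/pectin over corn oil/cellulose for every tested gene of the 10 studied genes, the pathway lists and 4 marker lists, 1 point per gene. Filled points have an adjusted p below 0.05 and bars mark list medians. Medians of the pathway lists lie between -0.17 and 0.22, at -0.10 for the receptors with Cd14 and Myd88, whereas pan-leukocyte markers have a median of -0.97 and T and NK cell markers one of -0.98.

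Markers of macrophages, cells that also express Tlr4 and Cd14, were mostly too low to test. Of 13 such markers 6 were tested, with 2 lower, Lyz2 and Mertk, and 0 higher, and a median of -0.35. Their summed level was 35.0 to 55.4 CPM in fish oil/pectin, against 56.1 to 73.3 CPM in corn oil/cellulose. Most of that sum came from Mertk, at 37.2 CPM in fish oil/pectin and 56.3 CPM in corn oil/cellulose on average. Apart from Mertk, the tested markers were C1qa at 10 to 123 counts, Cd68 at 15 to 57, Lyz2 at 10 to 52, Mrc1 at 7 to 31 and Csf1r at 2 to 16. Among the untested, Cd163 was at 0 in every library, Fcgr1 had at most 1 count and Adgre1 at most 3. Of 7 neutrophil markers only Ly6g was abundant enough to test, at 54.9 ± 30.6 CPM in fish oil/pectin and 39.4 ± 12.8 CPM in corn oil/cellulose, with a log2 fold change of 0.34 (adjusted p = 0.349, edgeR). Of the others, Csf3r had at most 4 counts, S100a8 and S100a9 had at most 1 count, and Cxcr2, Retnlg and Mpo were at 0 in every library. In the same libraries Cd14 had 455 to 1454 counts, and which cells carried its RNA was not tested.

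Of the 4 calls over all libraries, the 3 lower ones did not depend on any single library. Tlr1, Tlr3 and Tlr5 passed in 16 of 16 fits that each left out 1 library, with log2 fold changes of -0.24 to -0.18, -0.56 to -0.47 and -0.98 to -0.77 in edgeR. Over 31 settings, these 16 among them, the call was lost under 3 for Tlr1, 2 for Tlr3, 1 for Tlr5 and 14 for Cd14. With the mean log2 CPM of pan-leukocyte markers in the model, 0 of 13825 genes passed, while 3391 had an unadjusted p under 0.05. Tlr1 was then -0.25 (adjusted p = 0.127) and Cd14 0.57 (adjusted p = 0.103).

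**Figure D5:**
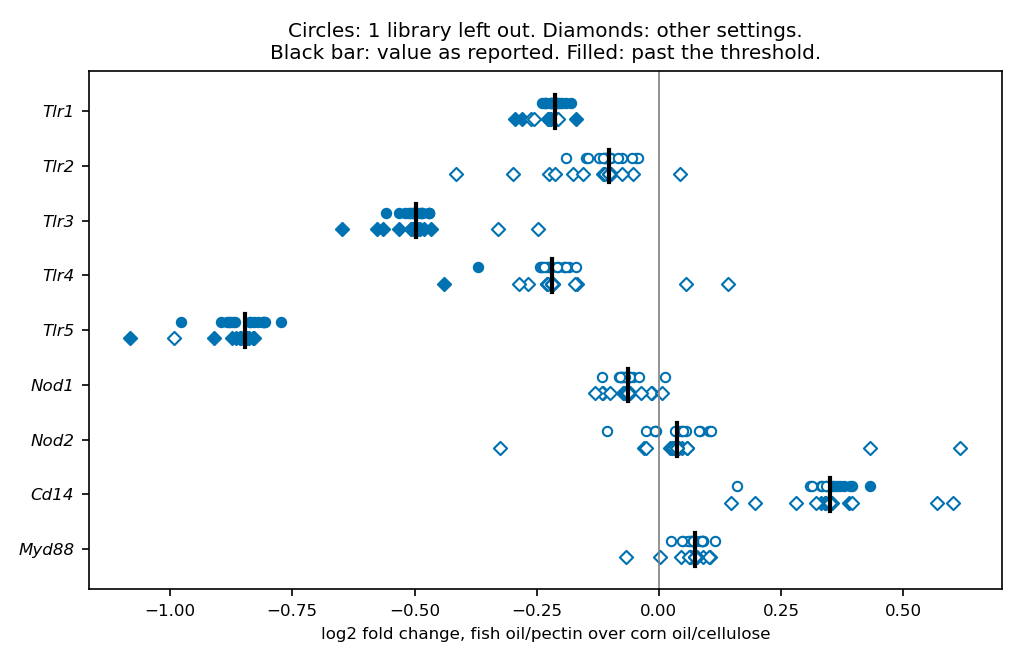
Log2 fold change of fish oil/pectin over corn oil/cellulose for the 9 tested genes under 31 settings. Circles leave out 1 library each, diamonds are the other settings, black bars mark the values reported, and filled symbols passed the threshold. Tlr1, Tlr3 and Tlr5 stay below 0 throughout and Cd14 above 0, whereas Tlr2, Tlr4, Nod1, Nod2 and Myd88 have values on both sides of 0.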

How the data were processed

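Colonocyte RNA from mice on the fish oil/pectin or corn oil/cellulose diet was measured by stranded poly(A) RNA-seq from 200 ng of RNA, per the labels' protocols. The values are raw counts per gene symbol as deposited by the authors, 1 column per library, and 0 columns were left unused. The tools were STAR 2.6.0a and HTSeq 0.11.1 with build GRCm38, per the submitters' processing notes. The sources used here do not give the strand setting or the annotation release. Identifiers, coordinates and exon lengths came from GENCODE M21 on GRCm38, in which 98.9% of symbols were found.

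Counts were fitted with edgeR 4.0.16 (R 4.3.3, limma 3.58.1), using TMM scaling, filterByExpr by diet (13825 genes with 99.9% of counts), and the robust quasi-likelihood test with diet and name form as terms. Benjamini-Hochberg adjustment ran over all genes, and an adjusted p below 0.05 was called. Standard errors were obtained by dividing the log2 fold change, without its sign, by the square root of F. A second edgeR fit of 4 groups (diet by name form) gave the diet difference in each form and its difference between forms. No pair of libraries agreed within sampling noise, with a chi-square per degree of freedom of 8.20 to 141 over 57 pairs. For correlations, log2 CPM had a prior count of 2.

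The genes, pathway and marker lists, tests and settings were chosen with earlier results of these data known. All 10 genes are described, and from each other list up to 4 called genes with the lowest p in each direction were to be named, as were direct partners of the 10 genes. Epcam, Ptpn6, Ly6g, C1qa, Cd68, Mrc1, Csf1r, marker genes at or near 0 and genes overlapping a studied gene fall outside that rule. They were named after their values were seen. Alternatives were the name form term, a replicate block, each form alone, each library left out in turn, other scalings, other filters, DESeq2 1.42.0, leukocyte, Hox and sex covariates, a length correction and other thresholds. The main fit was tested on simulated data: of 100 genes at an absolute log2 fold change of 0.5 and 100 at 1, 55.6% and 87.5% of those tested were recovered. Far fewer genes changed there than the 42.7% called here, so these shares may not describe recovery in these data.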

Additional observations from a re-analysis of the deposited data

Results flagged for a closer look

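The levels of the 10 genes were searched for libraries far from the rest of their diet, by the gap to the nearest library over the group's range. Of 20 gene and diet groups 2 held such a library, where chance gives about 1 in 20. Cd14 stood at 80.2 CPM in fish oil/pectin library 2, against 39.1 to 50.7 CPM in the other 6. Tlr1 stood at 75.3 CPM in fish oil/pectin library 7, below the other 6 at 87.8 to 96.7 CPM. Library 7 is also the one with low distal colon Hox genes, and its part in the Tlr1 value was not tested. Without it Tlr1 was still lower in fish oil/pectin.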

How the results depend on the processing

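Of 13825 genes 5909 passed, with 4 of the 10 studied genes and 24 pathway genes. The counts moved by more than 1.5 times under these settings: 3502 genes, 2 studied genes and 13 pathway genes with the replicate block, 900, 1 and 3 in the libraries of the other form alone, 0, 0 and 0 with the leukocyte covariate, and 3565 genes and 13 pathway genes at a threshold of 0.01. Replicate numbers were not taken to pair the libraries. Deviations from the diet mean in same-numbered libraries correlated at -0.08 to 0.51 over 7 pairs. The highest values, 0.51 and 0.43, were in pairs with both libraries of the other form, so this check cannot separate pairing from name form. Under the block Tlr1 was -0.26 (adjusted p = 0.0578) and Cd14 0.40 (adjusted p = 0.0642). Leaving out 1 library gave 5043 to 6001 genes, 3 to 4 studied genes and 19 to 26 pathway genes. In the joint fit it gave 5565 to 6498 genes in GC-named libraries, 0 to 280 in the others (280 without fish oil/pectin library 7, 0 to 7 without any other) and 6 to 1765 for the difference between forms, for which 1212 passed with all libraries. The count for the difference was 6 genes without fish oil/pectin library 2 and was also more than 1.5 times smaller without fish oil/pectin libraries 1 (342) and 4 (776) and corn oil/cellulose libraries 3 (348), 4 (636), 6 (771), 7 (787) and 8 (688). Scaling by total counts left 5942 genes, of which 37.8% were higher, against 51.7%.

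Signs turned for uncalled values. Tlr2 was 0.043 in GC-named libraries alone, Tlr4 0.14 in the others alone and 0.055 with the leukocyte covariate, Myd88 -0.067 with the length trend removed, and Nod1 0.0068 with the Hox covariate. Nod2 was -0.33 in GC-named libraries alone, -0.031 with total count scaling and -0.027 with the Hox covariate. With 1 library left out, Nod1 ran from -0.12 to 0.013 and Nod2 from -0.11 to 0.11. In the joint fit, the GC-named values of Tlr2 ran from -0.048 to 0.12 and of Nod1 from -0.17 to 0.038. Values of the other form ran from -0.22 to 0.41 for Tlr4, -0.11 to 0.27 for Myd88, -0.084 to 0.033 for Nod1 and -0.020 to 1.02 for Cd14. Differences between forms ran from -0.040 to 0.072 for Tlr1, -0.21 to 0.15 for Tlr5, -0.20 to 0.17 for Myd88, -0.13 to 0.064 for Nod1 and -0.80 to 0.24 for Cd14. The cause was not tested. Cd14 also lost its call with no name form term (adjusted p = 0.0749), total count scaling (0.0841), no filter on low counts (0.0607) and the length trend removed (0.442), at log2 fold changes of 0.15 to 0.35.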
